A study of Mus musculus with 9 samples.

Results

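Glutamine use and ammonia production were followed through 7 genes: the glutamine transporter Slc38a3, glutamate dehydrogenase (Glud1), glutamine synthetase (Glul), and the transaminases Got1, Got2, Gpt and Gpt2. They were chosen by symbol for their place in the pathway, not for their level or response. All 7 were in the table of 24421 genes, and all 7 were among the 15583 genes that reached a level of 0.3 CPM (estimated counts scaled to a common library size) in at least 2 of the 9 mice and were tested.

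The proximal tubule takes up glutamine and breaks it down in its mitochondria. The breakdown, in which glutamate dehydrogenase takes part, releases ammonium, which can enter the urine and carry acid out of the body or return to the blood, while the carbon skeleton, 2-oxoglutarate, can be turned into bicarbonate and glucose. Transaminases move the amino group of glutamate to oxaloacetate or pyruvate without releasing ammonia, and glutamine synthetase runs the other way, joining ammonia to glutamate.

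RNA was sequenced from proximal tubular cells of 3 groups of 3 C57BL/6 mice: *db/m* mice, heterozygous non-diabetic controls, *db/db* mice, which lack a working leptin receptor and become obese and diabetic, and *db/db* mice given dapagliflozin (*db/db*-dapa, here called treated), a blocker of the glucose transporter SGLT2. Dapagliflozin was given at 1.5 mg/kg/day in the drinking water for 8 weeks, while the *db/db* group drank vehicle. Every mouse, controls included, also carried SLC34a1GCE, which puts a tamoxifen-inducible Cre under the control of the proximal tubular phosphate transporter gene, and the R26tdTomato reporter, and had 5 tamoxifen injections at 8 weeks of age. The labels name the tissue only as kidney, and the study's methods describe red fluorescent cells sorted from minced kidney cortex. The sort was therefore aimed at cells that had switched on Cre and their descendants.

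Library totals ranged from 2733314 estimated counts (*db/db* replicate 1) to 9033062 (treated replicate 3). All 8 proximal tubular markers were detected, with a summed level of 20038 to 20494 CPM in *db/m*, 24328 to 27998 in *db/db* and 25757 to 29111 in treated mice. Markers of other cells were present at lower levels. The 3 markers of the thick ascending limb summed to 752 to 1513 CPM in *db/m*, 308 to 983 in *db/db* and 384 to 493 in treated mice, and the 3 podocyte markers reached 214 CPM in treated replicate 1 against 16.2 to 71.0 in the other libraries. The 6 markers of the S3 segment, the last stretch of the proximal tubule, summed to 1132 to 1374 CPM in *db/m* mice, to 141, 246 and 957 in *db/db* replicates 1, 2 and 3, and to 673 to 953 in treated mice. None of the markers in these lists was at 0 in all mice. In sorted bulk RNA, fewer cells of a type and less RNA per cell cannot be told apart.

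The 7 genes differed widely in abundance. Levels between genes were compared as CPM per kilobase of the transcript with the longest coding sequence. In *db/m* mice the order was Glul at 363 ± 56.8, Glud1 at 172 ± 20.1, Got2 at 138 ± 11.0, Got1 at 70.1 ± 12.1, Gpt2 at 25.9 ± 3.71, Gpt at 22.9 ± 9.27 and Slc38a3 at 8.16 ± 2.23 CPM per kilobase (SD, n = 3). Glutamine synthetase was thus the most abundant and the transporter the least, and only Gpt2 and Gpt overlapped among neighbours in that order, while the lowest Glud1 value and the highest Got2 value both rounded to 151. In *db/db* mice Slc38a3 (17.4 ± 13.4), Gpt2 (32.4 ± 12.2) and Gpt (35.8 ± 15.8) overlapped one another. In treated mice the order was the same for the first 4 genes and changed at the lower end. Glul (331 ± 41.1) and Glud1 (302 ± 46.4 CPM per kilobase) now overlapped, and Slc38a3 (51.8 ± 13.2) lay beside Gpt2 (42.6 ± 7.15), which it overlapped, and above all 3 values of Gpt (29.8 ± 3.32).

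**Figure D1:**
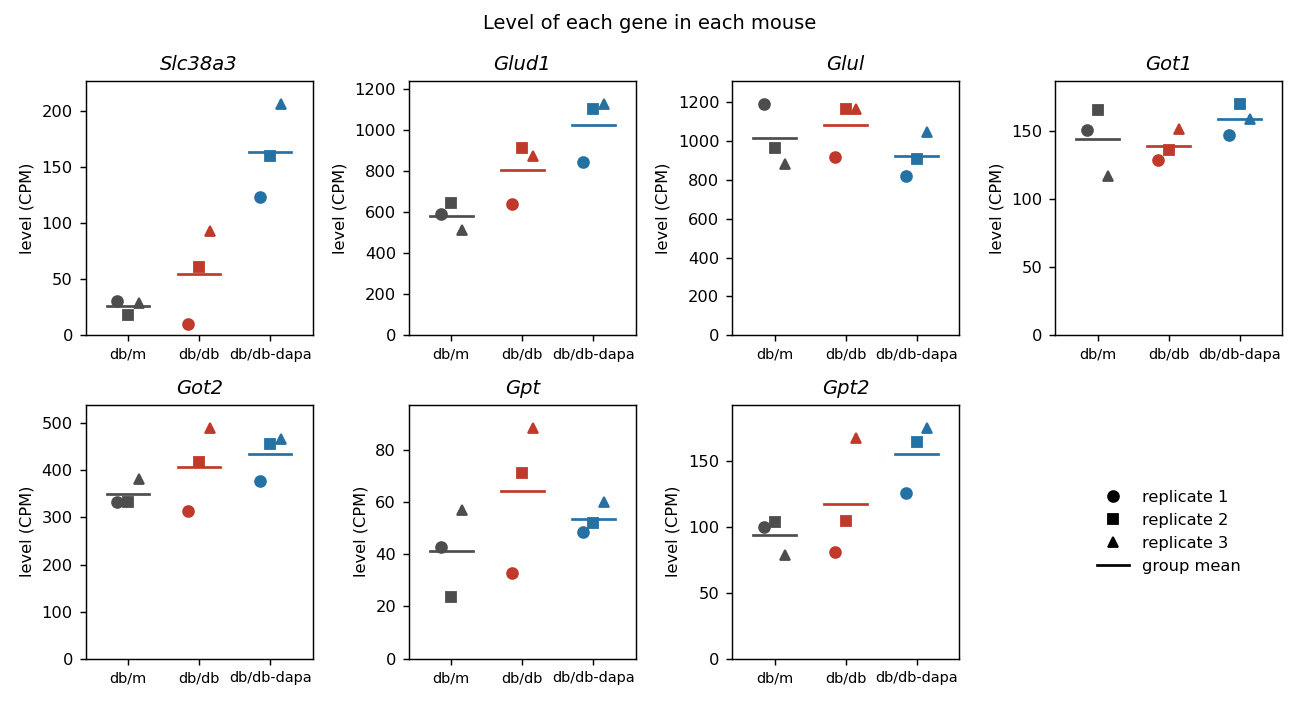
Level of each of the 7 genes (CPM, vertical axis starting at 0) in each of the 9 mice, by group (treated mice are marked *db/db*-dapa here and in the other plots), with a bar at the group mean. Slc38a3 was at 17.6 to 30.4 CPM in *db/m* and 123 to 206 CPM in treated mice, while the 3 *db/db* mice were spread from 9.86 to 93.3 CPM, and the 3 groups overlapped for Glul, Got1, Got2 and Gpt.

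Slc38a3 (chr9:107650634-107669530, minus strand, GRCm38) encodes SNAT3, a sodium-coupled carrier in the basolateral membrane that brings glutamine from the blood into the cell and lies mainly in the S3 segment of the unstressed kidney. Its level was 30.4, 17.6 and 29.1 CPM in *db/m* replicates 1, 2 and 3. It was 9.86, 60.8 and 93.3 CPM in the *db/db* replicates, and 123, 160 and 206 CPM in the treated replicates. Every treated mouse lay above every mouse of the other 2 groups, whereas the *db/db* mice included both the lowest value of all 9 and values above every *db/m* mouse. These levels rest on 29 estimated counts in *db/db* replicate 1, 101 to 193 in the *db/m* libraries and up to 1823 in the treated libraries.

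Slc38a3 rose in treated against *db/m* mice, by 2.67 ± 0.57 on the log2 scale (SE; 95% interval 1.43 to 3.91; 6.35-fold), with an adjusted p of 0.0730 in edgeR's quasi-likelihood test and 0.00022 in DESeq2. To be called, a gene needed both an adjusted p under 0.1 and a change of more than 1 on the log2 scale. Slc38a3 was the 1 called gene of the 7 in this comparison, against 1.05% of all genes tested. The call rested on many of the libraries. Without any one of the 3 *db/m* mice the adjusted p in edgeR was 0.162 to 0.258, without *db/db* replicate 2 it was 0.101, and without treated replicate 2 or 3 it was 0.289 or 0.244, with log2 fold changes from 2.45 to 2.81 in these 6 fits.

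Between treated and *db/db* mice, the comparison of the drug with vehicle in diabetic mice, the log2 fold change of Slc38a3 was 1.55 ± 0.54 (SE; 95% interval 0.37 to 2.73). Its p was the 180th smallest of 15583 genes in edgeR, and it missed the adjusted threshold (adjusted p = 0.854 in edgeR, 0.504 in DESeq2). In edgeR 808 genes, 5.19% of those tested, were at an unadjusted p under 0.05. No gene of the whole table was called here by edgeR (0%), with or without a minimum fold change, while DESeq2 called 13. The log2 fold change of Slc38a3 moved with single *db/db* mice. Without *db/db* replicate 3 the log2 fold change was 2.17 (adjusted p = 0.0912), and without *db/db* replicate 1 it was 1.08 (adjusted p = 1).

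Slc38a3 was 1.12 ± 0.55 higher on the log2 scale in *db/db* than in *db/m* mice (95% interval -0.08 to 2.32; adjusted p = 0.399 in edgeR), a difference within the spread of the replicates. Without *db/db* replicate 1 it was 1.59 (adjusted p = 0.0487), and without *db/db* replicate 3 it was 0.51 (adjusted p = 0.754). Some markers of the proximal tubule and its segments rose with Slc38a3 across the *db/db* mice, and others did not. In *db/db* replicates 1, 2 and 3, the S3 marker Slc5a1, the glucose transporter SGLT1, was at 28.9, 77.4 and 171 CPM. It was at 67.5 to 77.6 CPM in *db/m* and at 131 to 147 CPM in treated mice. The S3 marker Atp11a also rose, at 99.9, 150 and 636 CPM in *db/db* replicates 1, 2 and 3. So did Slc22a13, at 0.68, 9.60 and 49.5 CPM, the first from 2.5 estimated counts. Slc7a13, also of S3, was at 9.52, 7.40 and 100 CPM. Over the same *db/db* replicates, Slc22a6, a marker of the S1 and S2 segments, was at 384, 986 and 1882 CPM. No other marker of the S1 and S2 list rose in this order. The proximal tubular marker Slc13a3 was at 319, 865 and 1277 CPM. Markers of S1 and S2 that fell were Slc5a2, the gene of SGLT2 (2124, 1098 and 760 CPM), Slc5a12 (1070, 595 and 577 CPM) and Gatm (1736, 1666 and 1269 CPM). Slc22a8, at 1018, 1331 and 1013 CPM, and Slc6a19, at 577, 292 and 579 CPM, moved both ways. The S3 marker Cyp7b1 had only 6, 7 and 7 estimated counts in *db/db* replicates 1, 2 and 3. The S3 marker Slc22a7 stayed at or below 0.34 CPM in these mice. Across the groups, the median log2 fold change of the S3 list was -1.40 in *db/db* and -1.42 in treated against *db/m* mice. Of its 6 genes 1, Slc22a7, was called lower in both. In treated against *db/db* mice the median of the S3 list was 0.63, with 0 of 6 called. The part of the S3 segment in the Slc38a3 values was not tested.

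**Figure D2:**
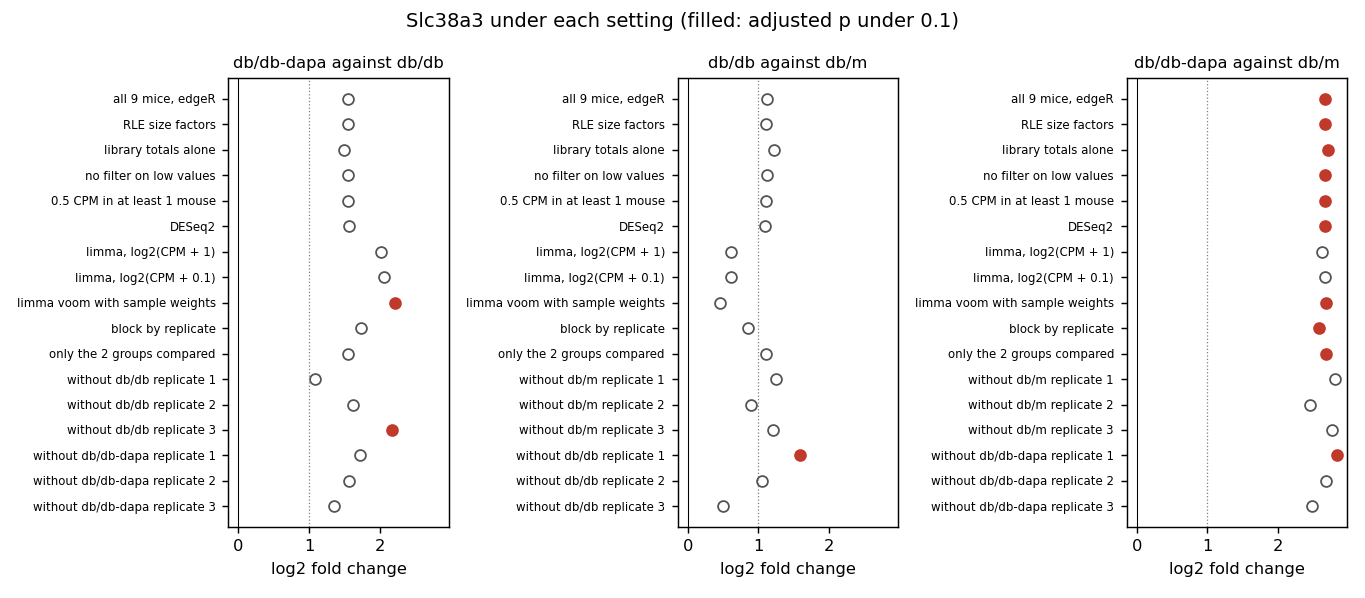
Log2 fold change of Slc38a3 (horizontal axis) in each of the 3 comparisons under each processing setting and without each mouse of the groups compared. Filled points have an adjusted p under 0.1 and the dotted line marks a log2 fold change of 1. The estimates between treated and *db/m* mice stay from 2.45 to 2.84, while those between treated and *db/db* mice spread from 1.08 to 2.22 and those between *db/db* and *db/m* mice from 0.46 to 1.59.

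Glud1 (chr14:34310727-34345265, plus strand) encodes the mitochondrial enzyme that turns glutamate into 2-oxoglutarate and ammonium. It was at 593, 647 and 511 CPM in the *db/m* mice, 640, 914 and 873 CPM in the *db/db* mice, and 843, 1102 and 1128 CPM in the treated mice. The treated mice lay above all *db/m* mice, and the *db/db* mice overlapped both other groups. The log2 fold change was 0.81 ± 0.20 in treated against *db/m* mice (95% interval 0.37 to 1.25), which missed the adjusted threshold in edgeR (adjusted p = 0.112) and passed it in DESeq2 (adjusted p = 0.00498). It was 0.47 ± 0.20 in *db/db* against *db/m* mice and 0.34 ± 0.20 in treated against *db/db* mice, with adjusted p of 0.324 and 0.854 in edgeR. Slc38a3 was the only one of the 7 at an adjusted p under 0.1 in edgeR in treated against *db/m* mice, where 1.31% of all genes were, and DESeq2 added Glud1, where 7.93% of the genes it tested were.

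Glul (chr1:153899944-153909723, plus strand) encodes glutamine synthetase. Its level was 1191, 967 and 885 CPM in *db/m* mice, 920, 1168 and 1166 CPM in *db/db* mice, and 818, 907 and 1046 CPM in treated mice. All 3 groups overlapped. The log2 fold change was -0.23 ± 0.19 between treated and *db/db* mice, 0.10 ± 0.19 between *db/db* and *db/m* mice and -0.13 ± 0.19 between treated and *db/m* mice, with adjusted p from 0.712 to 0.854 in edgeR. The 95% interval of the last difference ran from -0.55 to 0.28, so that a change as large as the estimate for Glud1 lay outside it.

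Set against each other in the same library, where scaling plays no part, the 2 enzymes gave a ratio that did not overlap between the groups. How often the ratios of other gene pairs do so was not counted. For single genes the share without overlap was 10.2% in treated against *db/db*, 16.4% in *db/db* against *db/m* and 28.1% in treated against *db/m* mice. The log2 ratio of Glul to Glud1, each as CPM + 1, was 1.0, 0.58 and 0.79 in *db/m* mice, 0.52, 0.35 and 0.42 in *db/db* mice, and -0.04, -0.28 and -0.11 in treated mice. No *db/db* mouse reached the *db/m* range and no treated mouse reached the *db/db* range. The mean ratio was 0.36 lower in *db/db* than in *db/m* mice and 0.58 lower in treated than in *db/db* mice. Each difference had an exact two-sided permutation p of 0.1, the smallest that 3 against 3 can give, and an adjusted p of 0.2 over the 12 ratio tests made (Benjamini-Hochberg, exact permutation tests), so that these differences could not pass the threshold at this group size. The ratio of Slc38a3 to Glul was -5.28 ± 0.41 in *db/m*, -4.76 ± 1.46 in *db/db* and -2.52 ± 0.19 in treated mice (log2, SD, n = 3), and the treated mice overlapped neither other group (exact permutation p = 0.1 for each, adjusted p = 0.2). For Slc38a3 alone, the treated mice also overlapped neither other group.

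**Figure D3:**
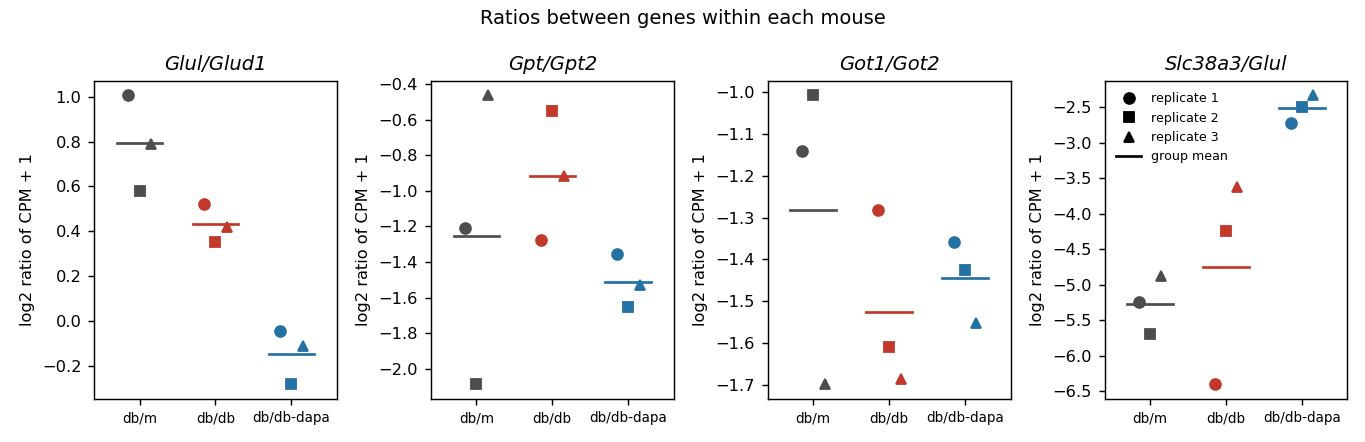
Log2 ratio between 2 genes (each CPM + 1, vertical axis) within each mouse, by group, with a bar at the group mean. Glul to Glud1 falls without overlap from 0.58 to 1.0 in *db/m* through 0.35 to 0.52 in *db/db* to -0.28 to -0.04 in treated mice, and Got1 to Got2 overlaps between all groups.

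Reads of Glud1, Glul and Got2 can be shared with near-identical copies, which makes these 3 levels uncertain. At 95% identity or more over at least 101 bases, Glud1 transcripts matched those of 2 other annotated genes, Glul those of 2 and Got2 those of 3, among them a processed pseudogene of each, and Slc38a3, Got1, Gpt and Gpt2 matched none. Among the matches counted were genes that overlap on the opposite strand: Teddm2 for Glul (116 bases) and Gm45760 for Got2 (163 bases). Glul also overlaps Mir8114 on its own strand.

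Neither aspartate transaminase passed the test in any comparison. Got1 (chr19:43499752-43524605, minus strand), the cytosolic form, was at 151, 165 and 117 CPM in *db/m* mice, 129, 136 and 152 CPM in *db/db* mice, and 146, 169 and 159 CPM in treated mice. Got2 (chr8:95864134-95888547, minus strand), the mitochondrial form and with Got1 a part of the malate-aspartate shuttle, was at 334, 333 and 381 CPM, 314, 417 and 490 CPM, and 377, 457 and 468 CPM in the same order. For both genes the 3 groups overlapped. The log2 fold changes of Got1 were 0.19 ± 0.17, -0.05 ± 0.17 and 0.13 ± 0.17 in treated against *db/db*, *db/db* against *db/m* and treated against *db/m* mice, and those of Got2 were 0.09 ± 0.19, 0.22 ± 0.19 and 0.31 ± 0.19, with adjusted p from 0.388 to 0.937 in edgeR. The largest of the 6 estimates, that of Got2 between treated and *db/m* mice, had a 95% interval from -0.11 to 0.73. The log2 ratio of Got1 to Got2 was -1.28 ± 0.37, -1.53 ± 0.22 and -1.44 ± 0.10 in *db/m*, *db/db* and treated mice (SD, n = 3) and overlapped in every comparison (exact permutation p from 0.4 to 0.7).

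The alanine transaminases form pyruvate and glutamate from alanine and 2-oxoglutarate, or the reverse. Gpt (chr15:76695716-76699686, plus strand), the cytosolic form, was at 42.7, 23.7 and 56.8 CPM in *db/m* mice, 33.0, 71.0 and 88.3 CPM in *db/db* mice, and 48.5, 51.7 and 60.1 CPM in treated mice. The *db/db* mice had the widest spread and both its ends lay outside the treated range. Its log2 fold change was -0.28 ± 0.35 between treated and *db/db*, 0.66 ± 0.35 between *db/db* and *db/m* and 0.38 ± 0.35 between treated and *db/m* mice, with adjusted p of 0.892, 0.439 and 0.556 in edgeR.

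Gpt2 (chr8:85492576-85527560, plus strand), the mitochondrial form, was at 99.8, 104 and 78.8 CPM in *db/m* mice, 81.2, 105 and 167 CPM in *db/db* mice, and 126, 164 and 175 CPM in treated mice. As with Slc38a3 and Glud1, the treated mice lay above all *db/m* mice and the *db/db* mice overlapped the controls. Gpt2 was 0.72 ± 0.26 higher on the log2 scale in treated than in *db/m* mice (95% interval 0.16 to 1.28; adjusted p = 0.212 in edgeR), and its log2 fold change was 0.39 ± 0.25 against *db/db* mice and 0.33 ± 0.26 between *db/db* and *db/m* mice. The log2 ratio of Gpt to Gpt2 was -1.51 ± 0.15 in treated mice and -0.91 ± 0.36 in *db/db* mice, without overlap (exact permutation p = 0.1, adjusted p = 0.2). In *db/m* mice the ratio ranged from -2.09 to -0.46 and covered both other groups.

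**Figure D4:**
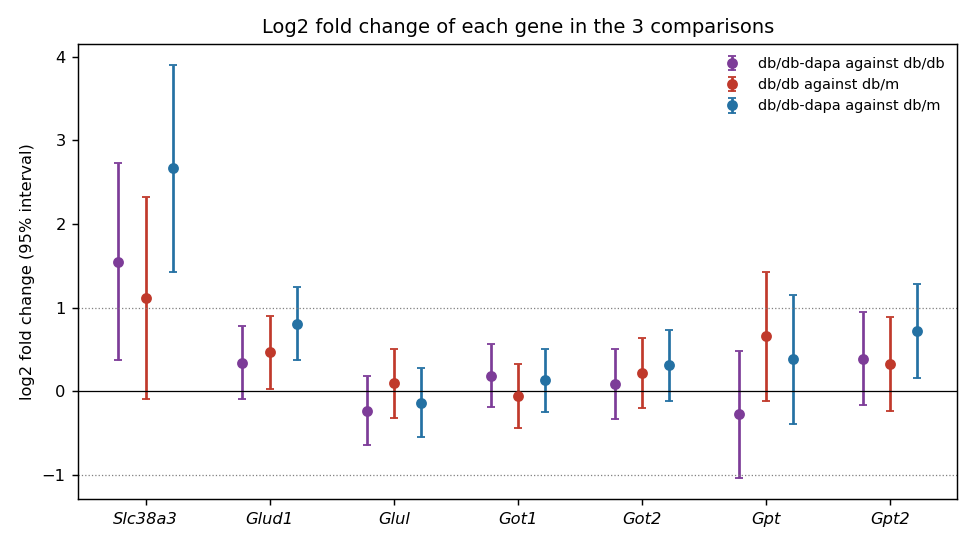
Log2 fold change of each of the 7 genes (vertical axis) in the 3 comparisons, with bars for the 95% interval from edgeR and dotted lines at -1 and 1. In treated against *db/m* mice the intervals of Slc38a3, Glud1 and Gpt2 lie above 0. In *db/db* against *db/m* mice that of Glud1 alone does so, from 0.03 to 0.91. In treated against *db/db* mice the interval of Slc38a3 alone does so, from 0.37 to 2.73. Of all genes tested, 18.2%, 13.7% and 5.19% were at an unadjusted p under 0.05 in edgeR in these comparisons, in that order.

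Counted over the 7 genes, 0 were called in treated against *db/db* mice, 0 in *db/db* against *db/m* mice, where 1.24% of all genes were called and 1.67% had an adjusted p under 0.1, and 1 in treated against *db/m* mice. The groups did not overlap for 1 of 7 (Slc38a3) in the first comparison, against 10.2% of all genes, for 0 of 7 in the second, against 16.4%, and for 3 of 7 (Slc38a3, Glud1 and Gpt2) in the third, against 28.1%. The median log2 fold change of the 7 was 0.19, 0.33 and 0.38, beside -0.01, 0.02 and -0.02 for all genes tested, and 5, 6 and 6 of the 7 were positive. The 3 comparisons share groups of mice and are not independent of one another.

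Glul stood apart from the rest in its pattern over the 9 mice. On log2(CPM + 1), Pearson's r was 0.87 between Slc38a3 and Gpt2, 0.87 between Glud1 and Gpt2, 0.85 between Slc38a3 and Got2, and 0.85 between Slc38a3 and Glud1, whereas Glul had r from 0.04 to 0.39 with the other 6. The lowest r of any pair was -0.15, between Got1 and Gpt. These values are descriptions over 9 mice that share their groups and libraries.

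Among 9134 genes with a mean of at least 10 CPM, the 2 most like each of the 7 over the 9 mice were named by Pearson's r. For Slc38a3 they were Dleu7 (r = 0.97) and Serpina1d (r = 0.96), the latter a member of a family of near-identical serpins whose reads may be shared. Serpina1d was at 6.58 ± 5.35, 39.9 ± 51.1 and 103 ± 41.0 CPM in *db/m*, *db/db* and treated mice (SD, n = 3), and its *db/db* values were uneven, with an SD above their mean. Glud1 was most like Cecr2 (0.98) and Pter (0.97), Got1 like Vcl (0.98) and Tor1aip2 (0.98), Got2 like Nup214 (0.98) and Agt (0.96), Gpt like Spata2l (0.96) and Taf3 (0.92), and Gpt2 like Pnpla8 (0.99) and Gnai1 (0.99). Glul had the weakest matches, Tln2 (0.92) and 3110043O21Rik (0.91). Pter, a phosphotriesterase-related protein, was at 416 ± 81.7, 616 ± 116 and 824 ± 99.4 CPM in *db/m*, *db/db* and treated mice (SD, n = 3).

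The stretch of 250 bases before the start site is shown for Glud1 and Gpt2, which moved together over the mice, and for Glul, which did not follow them. The sequences are those of RefSeq on GRCm38.p6, which held 5 of the 7 genes in the table used, and capitals mark the motifs found: GC boxes (GGGCGG, or CCGCCC on the other strand) and CCAAT boxes, both strands searched. The regions are chr14:34310477-34310726, chr8:85492326-85492575 and chr1:153899679-153899928, all on the plus strand.
Glud1: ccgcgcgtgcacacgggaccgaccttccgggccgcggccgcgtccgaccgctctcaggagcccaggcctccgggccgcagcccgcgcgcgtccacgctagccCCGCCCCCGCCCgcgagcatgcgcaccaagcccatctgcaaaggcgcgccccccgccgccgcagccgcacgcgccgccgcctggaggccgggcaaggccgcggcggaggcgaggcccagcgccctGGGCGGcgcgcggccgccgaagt
Gpt2: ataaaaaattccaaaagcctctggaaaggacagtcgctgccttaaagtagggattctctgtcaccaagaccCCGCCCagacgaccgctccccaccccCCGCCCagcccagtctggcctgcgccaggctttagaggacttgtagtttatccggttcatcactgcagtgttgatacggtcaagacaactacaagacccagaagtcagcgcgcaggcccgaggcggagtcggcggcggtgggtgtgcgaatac
Glul: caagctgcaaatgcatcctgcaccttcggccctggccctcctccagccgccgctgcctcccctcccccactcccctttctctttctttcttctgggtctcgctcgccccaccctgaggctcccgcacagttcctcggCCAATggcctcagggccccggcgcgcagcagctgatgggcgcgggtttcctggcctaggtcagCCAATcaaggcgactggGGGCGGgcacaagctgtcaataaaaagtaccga
A GC box occurred 3 times before Glud1, 2 of them side by side, 2 times before Gpt2 and 1 time before Glul, and was found in 32.9% of 27025 promoters of this length. A CCAAT box occurred 2 times before Glul and also before Got1, and in 34.5% of promoters. A TATA box (TATAAA) was found before Got2 and in 13% of promoters. The cyclic AMP response element TGACGTCA (1.62% of promoters) and the HNF4 element CAAAGTCCA (0.381%) were in none of the 5. The Glud1 stretch was 82% G and C, that of Glul 64.8% and that of Gpt2 57.6%. Matches and their absence describe these letters in these windows only.

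Of the other genes of the pathway, Oat was at an adjusted p under 0.1 in edgeR in both diabetic groups against *db/m* mice. Its change stayed below the fold change needed for a call. Oat encodes ornithine aminotransferase, which forms glutamate and a semialdehyde from 2-oxoglutarate and ornithine. It was at 185, 202 and 177 CPM in *db/m* mice, 348, 324 and 338 CPM in *db/db* mice, and 300, 378 and 316 CPM in treated mice. Both *db/db* groups lay above all *db/m* mice and overlapped each other. Oat was 0.84 ± 0.16 higher in *db/db* than in *db/m* mice on the log2 scale (adjusted p = 0.0352 in edgeR) and 0.82 ± 0.16 higher in treated than in *db/m* mice (adjusted p = 0.0575). In edgeR the adjusted p of Oat rose above 0.1 between *db/db* and *db/m* mice with only these 2 groups fitted (0.133). It also did so without *db/m* replicate 1 (0.178) or 3 (0.114). Between treated and *db/m* mice it rose above 0.1 without *db/m* replicate 1 (0.240), 2 (0.121) or 3 (0.20) or treated replicate 2 (0.364) or 3 (0.205). The log2 fold change of Oat between treated and *db/db* mice was -0.03 ± 0.16 (95% interval -0.37 to 0.32).

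Pck1, phosphoenolpyruvate carboxykinase, which takes the carbon of glutamine on towards glucose, was at 5104, 3938 and 3453 CPM in *db/m* mice, 4595, 10219 and 5105 CPM in *db/db* mice, and 5401, 9924 and 8245 CPM in treated mice. Every treated mouse was above every *db/m* mouse, and 1 *db/db* mouse was the highest of all. The log2 fold change of Pck1 was 0.92 ± 0.33 between treated and *db/m* mice (adjusted p = 0.212 in edgeR), 0.67 ± 0.33 between *db/db* and *db/m* mice and 0.24 ± 0.33 between treated and *db/db* mice.

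Oat and Pck1 belong to 4 lists of pathway genes with 64 tested genes in all. None of the 64 was called in any of the 3 comparisons by edgeR, against 1.24% and 1.05% of all genes in those of *db/db* and of treated with *db/m* mice. Oat was the 1 of 64 at an adjusted p under 0.1 in each of these 2, where 1.67% and 1.31% of all genes were, so the lists held about as many as the whole table. With treated set against *db/db*, *db/db* against *db/m* and treated against *db/m* mice, in that order, the 19 enzymes of glutamine and glutamate had median log2 fold changes of 0.32, 0.12 and 0.35. The 18 carriers of glutamine, glutamate and aspartate had medians of 0.03, 0.33 and 0.32, the 15 genes from 2-oxoglutarate to phosphoenolpyruvate medians of 0.06, 0.01 and 0.03, and the 12 genes of ammonium, proton and bicarbonate transport medians of 0.09, 0.04 and 0.30. Those of all genes tested were -0.01, 0.02 and -0.02. Of the 19 enzymes 12, 10 and 11 were positive, of the 18 carriers 10, 12 and 14, of the 15 genes towards phosphoenolpyruvate 9, 9 and 10, and of the 12 transport genes 8, 7 and 7. No set test was run on these lists.

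Some list members at the ends of the range, chosen after their values were seen, had wide spreads. Slc9a3, the sodium-proton exchanger NHE3 of the apical membrane through which acid and ammonium leave the cell, was at 18.0, 30.9 and 12.9 CPM in *db/m* mice, 25.5, 44.0 and 156 CPM in *db/db* mice, and 48.0, 78.5 and 108 CPM in treated mice. Its log2 fold change was 1.88 ± 0.59 in *db/db* and 1.92 ± 0.59 in treated against *db/m* mice, with adjusted p of 0.191 and 0.171 in edgeR and 0.0309 and 0.0239 in DESeq2. Slc1a4, a carrier of small neutral amino acids, was at 35.7, 23.2 and 23.1 CPM in *db/m*, 3.74, 12.8 and 26.8 CPM in *db/db* and 29.5, 41.2 and 44.6 CPM in treated mice (log2 fold change 1.33 ± 0.46 between treated and *db/db* mice, adjusted p = 0.854 in edgeR). The *db/m* mice overlapped both other groups, and in *db/db* mice Slc1a4 had its lowest value in replicate 1, as did Slc38a3. Rhcg, an ammonia channel of the collecting duct, was at 32.3 to 146 CPM in *db/m*, 33.7 to 77.2 in *db/db* and 18.2 to 33.9 CPM in treated mice (log2 fold change -1.75 ± 0.49 between treated and *db/m* mice, adjusted p = 0.143 in edgeR and 0.0153 in DESeq2). Beside it, the 3 markers of principal cells summed to 158 to 466, 175 to 332 and 105 to 189 CPM and the 4 of intercalated cells to 35.1 to 143, 54.3 to 74.1 and 24.8 to 52.4 CPM in the same groups, and their part in the Rhcg values was not tested.

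**Figure D5:**
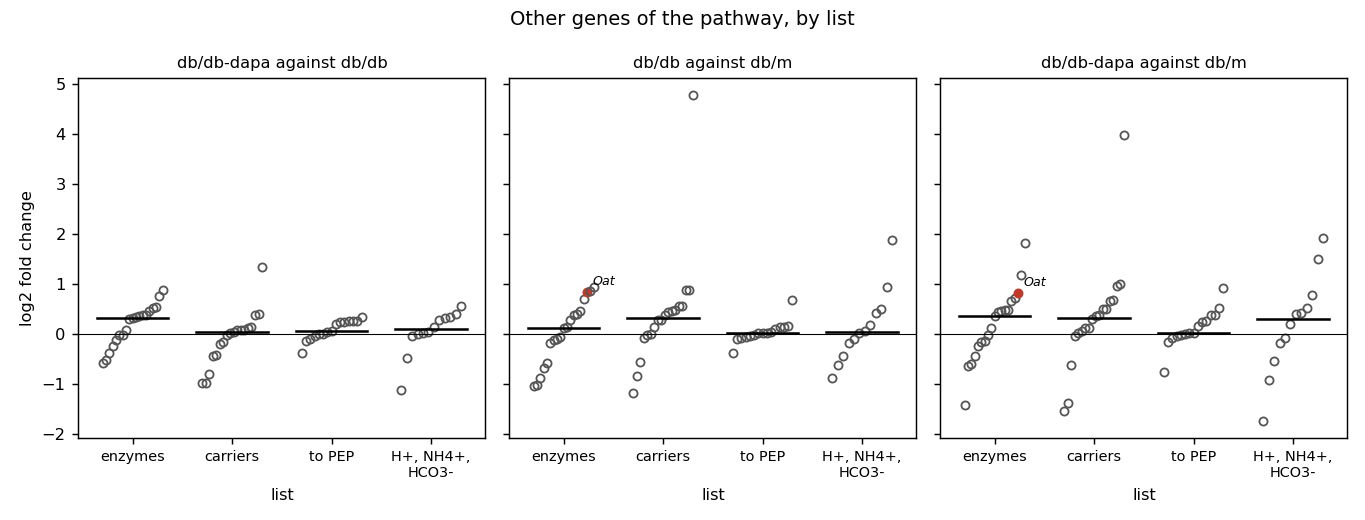
Log2 fold change (vertical axis) of the other genes of the pathway by list, 1 panel per comparison, with a line at each list's median and genes at an adjusted p under 0.1 filled. Oat is the 1 filled gene in each comparison with *db/m* mice, and the highest open circle in those panels is Slc25a18, which had 0 counts in every *db/m* mouse and at most 5 in any other. Without it, the median of the 17 remaining carriers is 0.04, 0.28 and 0.29 in the 3 comparisons.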

How the data were processed

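RNA of 3 *db/m*, 3 *db/db* and 3 treated (*db/db*-dapa) mice was analysed from 1 deposited table. According to the submitters' processing notes, reads were mapped to mm10 with TopHat2 2.0.13 and Bowtie2 2.2.3, with SAMtools 0.1.19 and Cufflinks 2.2.1 also named. The deposited values are named FPKM, but library totals differ and 85.9% of nonzero entries are whole, so the authors' values were taken as estimated counts. No source states this, and every CPM, fold change and p here rests on it. How reads shared by genes were divided, and whether strand was used, is not given in the sources used here. Of 24421 rows, 6100 are 0 in all mice.

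Values were rounded and tested in 1 fit over all 9 mice by edgeR 4.0.16 (quasi-likelihood F test, legacy form, TMM scaling, no block) in R 4.3.3, for genes at or above 0.3 CPM in at least 2 mice, with Benjamini-Hochberg adjustment over all genes tested. Calls needed both an adjusted p under 0.1 and a change of more than 1 on the log2 scale. Standard errors came from the F value. DESeq2 1.42.0 and limma 3.58.1 (on log2(CPM + 1), log2(CPM + 0.1), and voom with sample weights), other scaling, other filters, a replicate block, a fit to 2 groups only and leaving out each mouse were alternatives. Ratios were tested by exact permutation, two-sided. The edgeR test was also run on simulated counts drawn without deviations shared by the genes of a mouse. No result here rests on that run. Replicates are separate mice. Same-numbered mice did not deviate together throughout (r from -0.32 to 0.56, with 3 of 9 pairs over 0.1), so the numbers were not taken as pairs. Between *db/db* and treated mice r was 0.40, -0.16 and 0.56 for replicates 1, 2 and 3, so a shared deviation is not excluded there.

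The genes, lists and tests were chosen with earlier results of these data known. The genes named are the 7, Pck1, members of the lists at an adjusted p under 0.1 (at most 4 per list), and the 2 genes most like each of the 7, with a few list extremes chosen after their values were seen. The rule also covers genes whose values are not reported here. Coordinates and lengths are those of GENCODE M21 on GRCm38, and promoters those of RefSeq on GRCm38.p6.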

Additional observations from a re-analysis of the deposited data

How the results depend on the processing

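Over 336 alternative values of the 7 genes, 319 kept their direction and their side of the threshold, 7 changed direction, 7 lost and 3 gained the call. All 10 changes of call were of Slc38a3. Direction changed only where the reported log2 difference was 0.33 or less in size. Got1 between *db/db* and *db/m* mice was 0.047 on the log2 scale with library totals alone (and -0.19 to 0.053 when each mouse was left out), a scaling that moved the median of all genes in that comparison from 0.02 to 0.13. Glul between *db/db* and *db/m* mice was -0.020 with voom and sample weights. Leaving out each mouse gave -0.066 to 0.26 for Got2 and -0.58 to 0.034 for Gpt between treated and *db/db* mice, -0.024 to 0.53 for Gpt2 between *db/db* and *db/m* mice, and -0.0021 to 0.24 for Got1 between treated and *db/m* mice.

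Between treated and *db/db* mice, voom with sample weights called 1 of the 7 genes (2 at an adjusted p under 0.1), 4 list genes and 449 genes in all, and DESeq2 called 13 in all. Without 1 mouse, 0 to 1 of the 7 were called (0 to 1 by adjusted p alone), 0 to 3 list genes and 0 to 272 genes in all, the highest each time without *db/db* replicate 3. Between *db/db* and *db/m* mice, all genes called were 363 with DESeq2 and 115 with only the 2 groups fitted. List genes called were 1 with no filter, 2 with DESeq2 and 2 with voom. Without 1 mouse, 0 to 1 of the 7 were called (0 to 1 by adjusted p alone), 0 to 2 list genes and 84 to 230 genes in all, the lowest without *db/m* replicate 1.

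Between treated and *db/m* mice, limma on log2(CPM + 1) and on log2(CPM + 0.1) called 0 of the 7, 0 also by adjusted p alone. By adjusted p alone the count was 2 with library totals, with no filter and with DESeq2, 3 with only the 2 groups fitted and 4 with voom. All genes called were 275 with no filter, 507 with DESeq2, 1619 with voom and 630 with only the 2 groups, and list genes called were 2, 5, 9 and 6. Without 1 mouse, 0 to 1 of the 7 were called (0 to 3 by adjusted p alone), 0 to 6 list genes and 14 to 662 genes in all, the lowest without treated replicate 2 and the highest without *db/db* replicate 3. With a replicate block, 0, 0 and 1 of the 7 and 0, 185 and 167 genes in all were called in the 3 comparisons, and it changed no call of the 7; 4 of 9 samples correlated best with their own number. The cause of these changes was not tested.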
